A study of Mus musculus with 4 samples.

Results

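The mouse interferon regulatory factor genes Irf1, Irf2, Irf3, Irf4, Irf5 and Irf8 were followed through the cell groups of chimeric bone marrow. They were taken by symbol from the 27998 genes of the deposited count tables, where all 6 are present, among 9 genes with an Irf symbol. Irf7 and Irf9 were left out by the same rule. The levels of the 6 genes played no part in the choice of cells, since no Irf gene is among the 170 markers that assigned cells to groups.

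The study compared 2 Idh1-R132H libraries with 2 Idh1-WT libraries, each made from the marrow of 1 mouse by droplet 3′ single-cell RNA sequencing with molecular identifiers (UMIs), which count each captured RNA molecule once. Idh1-R132H libraries come from cells heterozygous for the R132H change in Idh1, the cytosolic isocitrate dehydrogenase, and Idh1-WT libraries from cells without it. In both, tamoxifen for 5 days induced recombination of an EYFP reporter and, in the mutant, of the Idh1 allele. EYFP-positive, lineage-negative marrow was sorted 2 weeks later and transplanted into irradiated recipients without supportive marrow, and the chimeric marrow was collected after 16 weeks. From each mouse, 4000 cells of each of 3 EYFP-positive populations were pooled: all CD45.1-positive donor cells, the LSK fraction, which holds stem and multipotent progenitors and is defined by Sca1 and cKit without lineage markers, and the LK fraction of cKit-bearing progenitors. The driver of the recombinase is not given in the sources used here, the labels do not say whether the mice had separate donors, and gene counts from the 3′ end do not show the R132H base. All p-values below therefore concern these libraries only, and they rest in large part on a spread shared over genes.

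Interferon regulatory factors share a DNA-binding domain that reads GAAA-type motifs in interferon-stimulated genes. Irf3 lies inactive in the cytoplasm until kinases downstream of nucleic acid sensors phosphorylate it, Irf5 acts downstream of Toll-like receptors, and Irf1 and Irf2 bind the same elements, Irf1 as an interferon-induced activator and Irf2 mostly as its antagonist. Irf4 and Irf8 bind DNA poorly alone and act with partners such as PU.1 (Spi1), Spib and Batf3. In marrow, Irf8 is known for directing progenitors towards monocytes and dendritic cells and away from neutrophils, and Irf4 for its part in B cell differentiation.

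All 6 genes lie on the plus strand of GRCm38: Irf1 at chr11:53770014-53778374, Irf2 at chr8:46739732-46847458, Irf3 at chr7:44997648-45002848, Irf4 at chr13:30749226-30766976, Irf5 at chr6:29526625-29541871 and Irf8 at chr8:120736358-120756694. Promoters from RefSeq on GRCm38.p6, each running from 250 bases before the start site to 50 bases after it, matched all 6 genes, with a second promoter for Irf1 and Irf8. They were searched on both strands for the gamma-activated site (TTCNNNGAA), the core of the interferon-stimulated response element and an ETS-IRF composite element. Of 32851 mouse promoters of the same length, 8.30% held the first, 3.44% the second and 2.72% the third. The gamma-activated site was found in 1 promoter of Irf1, in that of Irf2 and, at 2 places, in 1 promoter of Irf8. It was absent from the second promoters of Irf1 and Irf8 and from the promoters of Irf3, Irf4 and Irf5. Shown are the promoters of Irf8 and Irf5, the genes whose levels separated the branches most widely, and the part of the Irf1 and Irf2 promoters around the match, with matches to the gamma-activated site in capitals:
Irf8 promoter (chr8:120736108-120736407, plus strand): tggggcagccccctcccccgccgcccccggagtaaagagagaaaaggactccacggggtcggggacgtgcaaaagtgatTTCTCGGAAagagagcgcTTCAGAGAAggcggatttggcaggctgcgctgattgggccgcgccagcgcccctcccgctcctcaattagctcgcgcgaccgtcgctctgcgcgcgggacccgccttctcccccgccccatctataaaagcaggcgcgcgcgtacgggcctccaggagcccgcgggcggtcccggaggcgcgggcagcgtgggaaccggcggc
Irf5 promoter (chr6:29526375-29526674, plus strand): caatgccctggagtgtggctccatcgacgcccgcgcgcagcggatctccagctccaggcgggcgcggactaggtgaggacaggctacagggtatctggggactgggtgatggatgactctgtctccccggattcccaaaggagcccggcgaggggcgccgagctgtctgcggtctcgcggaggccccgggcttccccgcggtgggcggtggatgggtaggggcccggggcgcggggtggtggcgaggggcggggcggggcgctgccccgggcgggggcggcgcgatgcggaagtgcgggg
Irf1 promoter, part (chr11:53769908-53769948, plus strand): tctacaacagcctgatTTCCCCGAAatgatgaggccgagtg
Irf2 promoter, part (chr8:46739505-46739545, plus strand): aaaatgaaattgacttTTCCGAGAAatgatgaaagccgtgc
The Irf8 matches begin 171 and 153 bases before the start site, the Irf1 match 90 bases and the Irf2 match 224 bases before it. In Irf2, the response element core (GAAAATGAAA) begins 241 bases and the composite element (GGAAGTGAAA) 247 bases before the start site, and the 2 overlap. Such matches describe the letters of these windows and do not show that a factor binds there.

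The libraries held 47025425 and 53387528 UMIs for Idh1-R132H 1 and 2, and 56353466 and 40364701 UMIs for Idh1-WT 1 and 2. After filtering, 15764 cells remained, 3832 and 4350 in Idh1-R132H 1 and 2, and 4108 and 3474 in Idh1-WT 1 and 2, with median depths between 7180.5 and 9575 UMIs. Idh1-WT 1 shared 345 cell barcodes with Idh1-R132H 1 at a median UMI ratio of 46.1 in favour of Idh1-R132H 1, against 13 to 33 shared barcodes in the other pairs of libraries, and cells with at least 10 times more UMIs under the same barcode in another library were removed, 329 of 337 from Idh1-WT 1. Marker genes placed 12588 cells (79.9%) into groups, and the 15 groups with at least 20 cells in every library were used. Raw UMIs were summed per library and group. Levels are given as CPM, the count of a gene scaled to a common total per sum, and differences as log2 values from edgeR's quasi-likelihood test, in which an adjusted p below 0.05 (Benjamini-Hochberg over all genes tested) counts as called.

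Irf8 was the member with the widest range, from a mean of 7.50 CPM in erythroid cells to 2095 CPM in plasmacytoid dendritic cells, a ratio of 279. In plasmacytoid dendritic cells its level was 2403 and 1712 CPM in Idh1-R132H 1 and 2, and 2163 and 2102 CPM in Idh1-WT 1 and 2. Conventional dendritic cells had 981 and 947 CPM in Idh1-R132H, and 1260 and 1135 CPM in Idh1-WT. These sums rest on 22 and 33 cells in Idh1-R132H 1 and 2, and 28 and 35 cells in Idh1-WT 1 and 2. An Irf8 UMI was seen in 63.6% of cells in each Idh1-R132H library, and in 75% and 71.4% in Idh1-WT. The 5 richest cells held 65.4% and 38.2% of the Irf8 UMIs in Idh1-R132H, and 37.5% and 35.6% in Idh1-WT. The level is therefore a mean over cells with uneven Irf8. Clustering the cells gave 61.9% of this gate the same name. Every plasmacytoid library lay above every conventional one, and every conventional one above every library of the next group, the monocyte progenitors. Monocyte progenitors had 498 and 521 CPM in Idh1-R132H and 496 and 513 CPM in Idh1-WT, an even level across the 4 mice. Monocytes followed with a mean of 342 CPM and mature B cells with 266 CPM, whose ranges overlapped. Below them stood B precursors at 124 CPM, lymphoid-primed progenitors at 112 CPM and granulocyte-monocyte progenitors at 76.9 CPM. Clusters did not recover the lymphoid-primed gate under its name. At the low end stood neutrophils at 22.6 CPM, neutrophil precursors at 11.5 CPM and stem and multipotent progenitors at 9.22 CPM. Free RNA in the droplets, measured in barcodes of at most 50 UMIs, would give the neutrophil sums between 8.27 and 11.8 CPM of Irf8, depending on the library. The lowest neutrophil library, Idh1-WT 2, stood at 10.5 CPM, near these values. The neutrophil sums held 49 Irf8 UMIs over the 4 libraries.

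Irf5 had another order. Monocytes led with 258 and 290 CPM in Idh1-R132H 1 and 2, and 260 and 251 CPM in Idh1-WT 1 and 2, and their lowest library stood above the highest of any other group. Conventional dendritic cells followed at a mean of 181 CPM and mature B cells at 150 CPM, with overlapping ranges, then plasmacytoid dendritic cells at 107 CPM. Monocyte progenitors had 25.8 CPM and neutrophils 22.9 CPM, and their ranges overlapped. The other 9 groups had means between 1.48 CPM in erythroid cells and 11.5 CPM in stem and multipotent progenitors, so that the highest mean was 179 times the lowest. Irf5 overlaps Tnpo3, a nuclear import gene on the opposite strand, and whether the counting used strand is not given in the sources used here.

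Irf4 was highest in B precursors and low or undetected elsewhere. B precursors had 28.7 and 55.2 CPM in Idh1-R132H 1 and 2, and 42.0 and 57.1 CPM in Idh1-WT 1 and 2. Mature B cells had 7.71 and 18.5 CPM in Idh1-R132H, and 5.03 and 22.6 CPM in Idh1-WT, all below the lowest B precursor library and with a range that overlapped that of monocytes. Monocytes held 25 Irf4 UMIs in all, at 4.84 and 6.95 CPM in Idh1-R132H and 3.10 and 5.80 CPM in Idh1-WT. In each mouse Irf4 was therefore seen in monocytes, at a low level. Dendritic cells of both kinds held 4 UMIs together, monocyte progenitors 2, and in 8 of the 15 groups, both neutrophil groups among them, Irf4 was not detected, which allows at most 0.0602 CPM in granulocyte-monocyte progenitors and 1.39 CPM in neutrophils (3 counts over the 4 libraries).

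Irf1, Irf2 and Irf3 were found in all 15 groups and varied far less. Irf1 ranged from 6.14 CPM in erythroid cells to 61.2 CPM in plasmacytoid dendritic cells, and each group's range overlapped that of its neighbour in the order. Irf2 was highest in mature B cells, at 189 and 134 CPM in Idh1-R132H 1 and 2 and 136 and 200 CPM in Idh1-WT 1 and 2, all above the highest T or NK library, and lowest in granulocyte-monocyte progenitors at a mean of 18.6 CPM. Irf3 had the narrowest range, 3.93 times between mature B cells at 76.4 CPM and neutrophil precursors at 19.4 CPM. In mean CPM, both neutrophil groups lay below all other groups for Irf3, with no overlap with the granulocyte-monocyte progenitors next above them. The highest neutrophil library (29.4 CPM) stood above the lowest conventional dendritic one (26.9 CPM). In the fits below, Irf3 passed the test against neutrophils in mature B cells and not in monocytes or dendritic cells, whereas with library totals alone it was higher in monocytes by 0.96 (adjusted p = 0.00042), in dendritic cells by 1.29 (adjusted p = 5.7e-05) and in mature B cells by 1.81 (adjusted p = 4.1e-07).

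**Figure D1:**
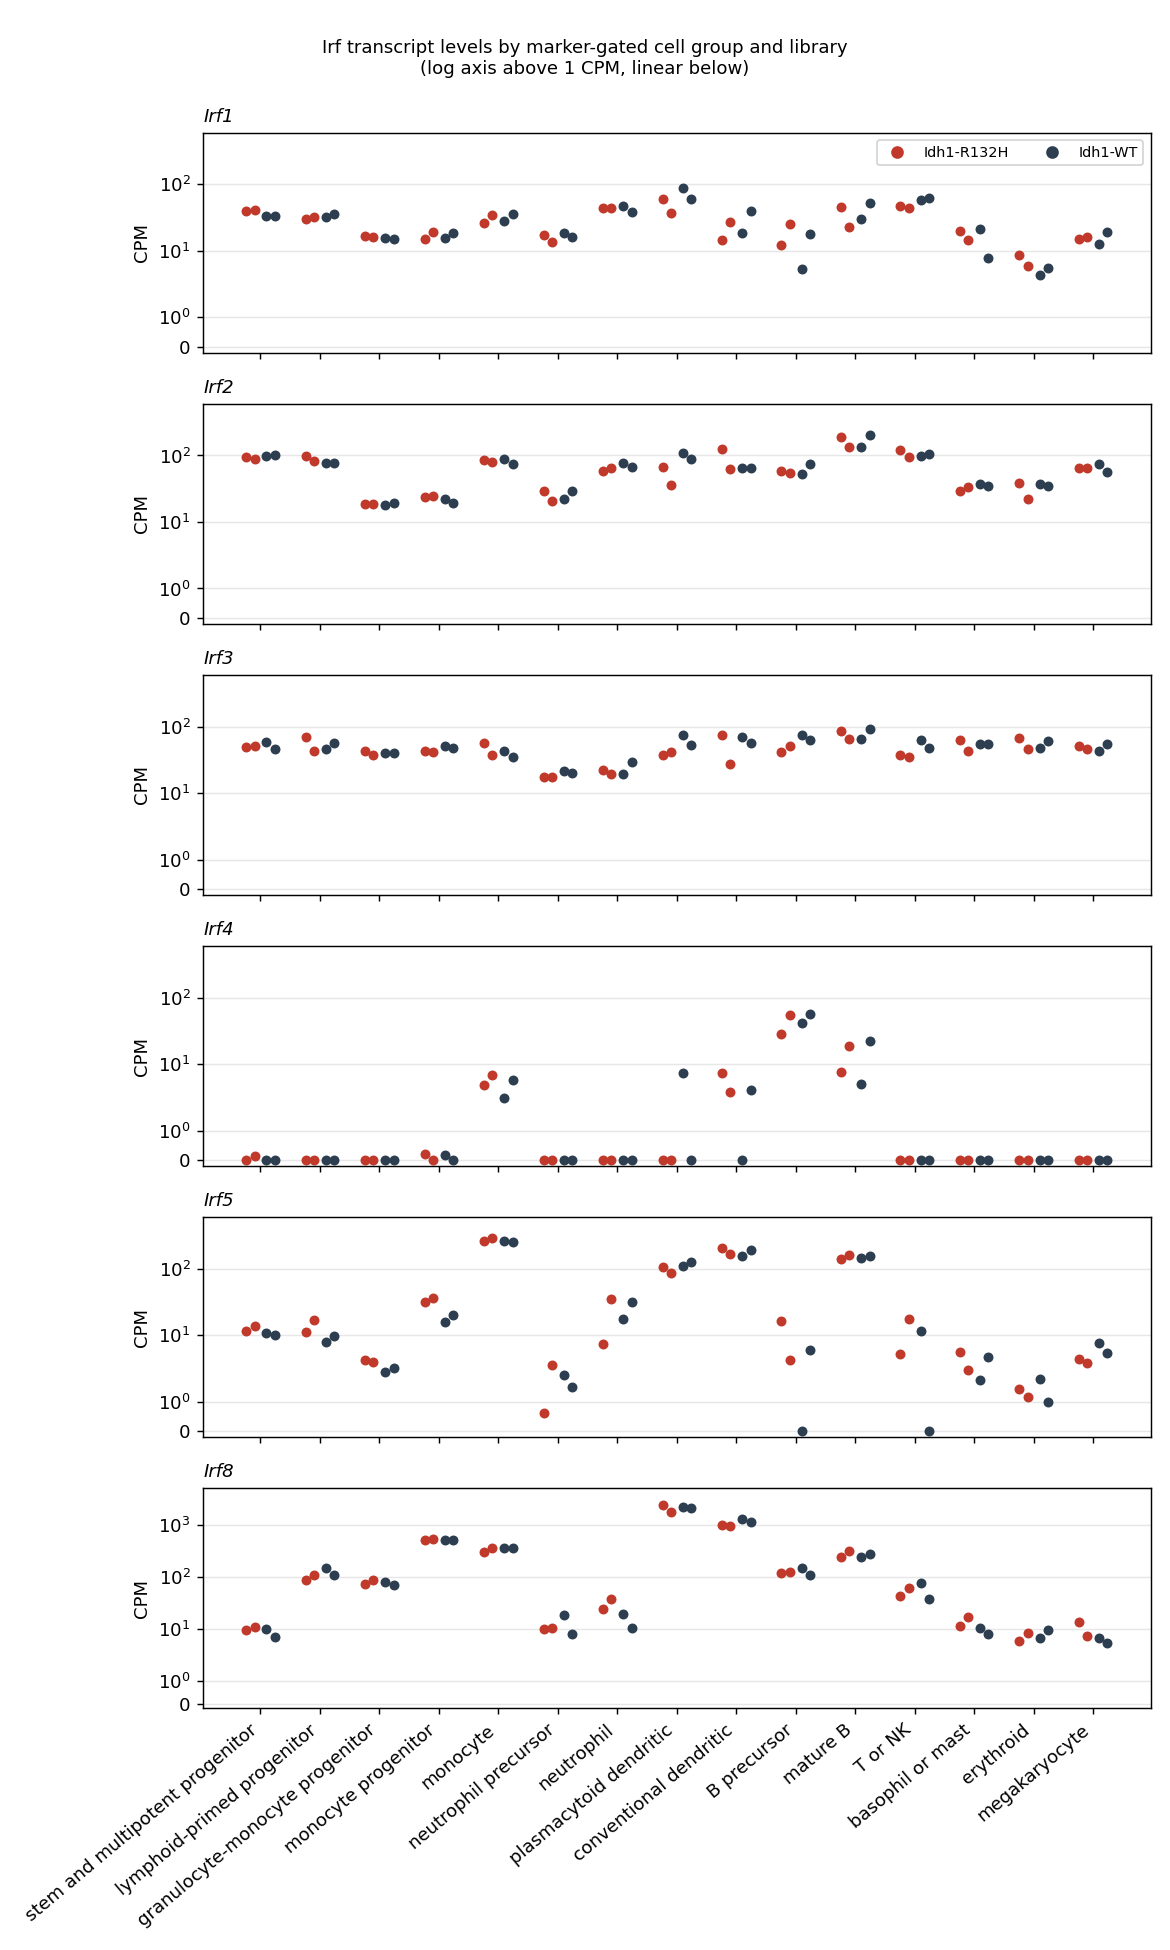
Level of each of the 6 Irf genes in CPM (log axis above 1 CPM, linear below; 1 panel per gene, the Irf8 panel on a higher scale) in the 15 marker-gated groups. Each point is 1 library, Idh1-R132H in red left of Idh1-WT in dark blue; Irf8 peaks in plasmacytoid dendritic cells at a mean of 2095 CPM, Irf5 in monocytes at 265 CPM and Irf4 in B precursors at 45.8 CPM.

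To compare the branches, sums of neutrophils, monocytes, dendritic cells (both kinds together) and mature B cells were fitted together with the library as a block. S100a8 and S100a9, which are markers of the neutrophil gate, made up 28.3% to 33.0% of all UMIs in the neutrophil sums and at most 0.507% in the monocyte sums. CPM ratios and fitted differences part ways where neutrophils are involved, and the part of these 2 genes in that was not tested. The fit sets the bulk of genes level, whereas scaling by library totals alone moved the median of all genes to 1.10 in monocytes against neutrophils, 1.27 in dendritic cells and 1.06 in mature B cells against neutrophils, all on the log2 scale. Irf4 had too few counts to enter this fit.

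Irf8 and Irf5 were higher in each of the other branches than in neutrophils. In monocytes, 2 members were higher and 2 lower than in neutrophils, where 59.8% of 5662 genes were called. Irf8 was higher by 2.86 (SE 0.20, adjusted p = 2.1e-19) and Irf5 by 2.51 (SE 0.21, adjusted p = 5.6e-16). The neutrophil levels behind these were 23.7 and 36.8 CPM of Irf8 in Idh1-R132H 1 and 2 and 19.5 and 10.5 CPM in Idh1-WT 1 and 2, all far under the lowest monocyte library at 301 CPM. Irf5 in neutrophils stood at 7.30 and 34.9 CPM in Idh1-R132H and at 17.9 and 31.5 CPM in Idh1-WT, an uneven set that never came near the monocytes. Irf1 was lower in monocytes by 1.53 (log2 -1.53, SE 0.22, adjusted p = 3.4e-08), at 25.8 and 34.7 CPM in Idh1-R132H monocytes and 27.9 and 35.8 CPM in Idh1-WT monocytes, against 43.8 and 44.5 CPM in Idh1-R132H neutrophils and 47.2 and 37.8 CPM in Idh1-WT neutrophils, without overlap. With library totals alone the difference was -0.47 (adjusted p = 0.046). For Irf2 the fit gave -0.75 (SE 0.18, adjusted p = 0.00033), a sign that turned to 0.31 (adjusted p = 0.087) with library totals alone, so no direction is given. Irf3 differed by -0.08 (SE 0.26, adjusted p = 0.79) in the fit and by 0.96 (adjusted p = 0.00042) with library totals alone, close to the shift of the median gene.

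Dendritic cells showed the largest Irf8 difference from neutrophils, 4.97 (SE 0.18, adjusted p = 9.2e-32), and a smaller one for Irf5, 1.60 (SE 0.24, adjusted p = 7.2e-08), where 64.9% of genes were called and 4 of 5 members with them. The fit also called Irf1 (-1.23, SE 0.26) and Irf2 (-0.96, SE 0.21) lower in dendritic cells. Scaled by library totals, Irf1 was at -0.09 (adjusted p = 0.74) and Irf2 turned to 0.17 (adjusted p = 0.44). Mature B cells were above neutrophils in Irf8 by 2.58 (SE 0.22, adjusted p = 1.6e-15) and in Irf5 by 1.77 (SE 0.25, adjusted p = 2.9e-08), with 57.0% of genes called. Irf3 was higher there by 0.82 (SE 0.29, adjusted p = 0.013), a call lost without Idh1-R132H 1 (adjusted p = 0.069) and with clusters in place of gates (adjusted p = 0.062). Irf1 was lower in mature B cells at -1.13 (SE 0.29, adjusted p = 0.00062), and at -0.13 (adjusted p = 0.68) with library totals alone. Irf2 was not called there (0.34, adjusted p = 0.14) but stood at 1.34 (adjusted p = 9.6e-08) with library totals alone.

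Between the 3 branches other than neutrophils, the fitted differences followed the CPM levels. Dendritic cells exceeded monocytes in Irf8 by 2.11 (SE 0.12, adjusted p = 5.9e-22) and were below them in Irf5 at -0.91 (SE 0.15, adjusted p = 1.1e-06), where 35.5% of genes were called. The other 3 tested members lay between -0.21 and 0.30 and were not called. Mature B cells had more Irf2 (1.09, SE 0.18, adjusted p = 8.7e-07) and Irf3 (0.90, SE 0.23, adjusted p = 0.0011) than monocytes and less Irf5 (-0.75, SE 0.16, adjusted p = 0.00015), while 45.8% of genes were called. Irf8 in mature B cells did not pass the test against monocytes (-0.28, SE 0.14, adjusted p = 0.099). Dendritic cells set against mature B cells had more Irf8 (2.39, SE 0.14, adjusted p = 1.7e-21) and less Irf2 (-1.30, SE 0.21, adjusted p = 1.1e-06), with 27.8% of genes called; Irf5 stood at -0.17 (95% interval -0.54 to 0.21).

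**Figure D2:**
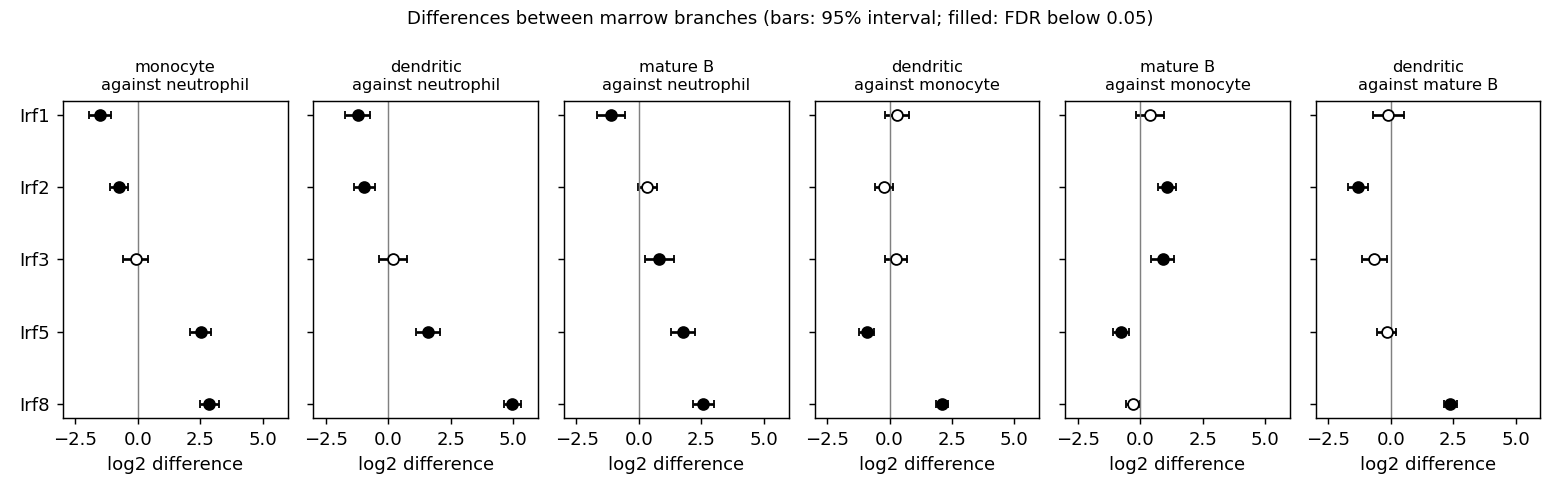
Fitted log2 differences of 5 Irf genes in the 6 pairs of branches (first-named group minus second; bars are 95% intervals; filled points have an adjusted p below 0.05 in edgeR's test). Irf8 lies right of zero in every pair that has dendritic cells first, at 4.97, 2.11 and 2.39, and Irf5 left of zero in dendritic cells and mature B cells against monocytes, at -0.91 and -0.75.

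The steps within each branch were fitted together over 9 groups. Both Irf8 and Irf5 were higher in monocyte progenitors than in granulocyte-monocyte progenitors, where 37.3% of 7022 genes were called. Irf8 had 498 and 521 CPM in Idh1-R132H monocyte progenitors and 496 and 513 CPM in Idh1-WT ones, against 73.0 and 85.6 CPM in Idh1-R132H and 79.4 and 69.7 CPM in Idh1-WT granulocyte-monocyte progenitors, a log2 difference of 2.67 (SE 0.08, adjusted p = 6.2e-41). Irf5 differed by 2.78 (SE 0.17, adjusted p = 7.1e-18), from levels of 4.30 and 3.97 CPM in Idh1-R132H and 2.79 and 3.26 CPM in Idh1-WT granulocyte-monocyte progenitors. No library of the earlier group reached one of the later group for either gene. Irf2 (0.24, adjusted p = 0.050) and Irf3 (0.14, adjusted p = 0.10) were not called, and Irf1 stood at 0.04 (95% interval -0.17 to 0.24).

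From the monocyte progenitor onwards Irf8 and Irf5 parted. Monocytes had less Irf8 than their progenitors, at -0.54 (SE 0.09, adjusted p = 9.8e-08), with all 4 monocyte libraries (301 to 360 CPM) under all 4 progenitor libraries. They had more Irf5 by 3.38 (SE 0.11, adjusted p = 1.4e-27), more Irf2 by 1.88 (SE 0.12, adjusted p = 1.1e-25) and more Irf1 by 0.90 (SE 0.16, adjusted p = 5.3e-07). Irf2 stood at 85.6 and 78.5 CPM in Idh1-R132H and 89.8 and 74.5 CPM in Idh1-WT monocytes, against 23.4 and 24.9 CPM in Idh1-R132H and 22.4 and 19.0 CPM in Idh1-WT progenitors. This step called 67.6% of all genes, against which the 5 of 6 members called are read. Irf4 was called higher in monocytes as well. Its 25 UMIs in monocytes and 2 in progenitors give a CPM ratio of 52.7, with a counting interval of 13.1 to 459 that covers counting error only.

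On the way to neutrophils Irf8 was lower in neutrophil precursors than in granulocyte-monocyte progenitors, at -1.81 (SE 0.16, adjusted p = 3.0e-16), where 75.9% of genes were called. Precursors had 9.80 and 10.3 CPM in Idh1-R132H 1 and 2 and 18.0 and 7.90 CPM in Idh1-WT 1 and 2, each well under the lowest progenitor library at 69.7 CPM. Irf2 was higher in precursors by 1.30 (SE 0.14, adjusted p = 4.0e-14), and by 0.39 (adjusted p = 0.0040) with library totals alone. Irf3 stood at -0.13 (adjusted p = 0.35) in the fit and was lower at -1.04 (adjusted p = 1.2e-13) with library totals alone. Irf1 was higher by 0.92 (SE 0.15, adjusted p = 1.3e-07) in the fit but at 0.01 (adjusted p = 0.96) with library totals alone, where the median of all genes was -0.83. Irf5 had 19 UMIs in the precursors and was not called (0.25, SE 0.50). In neutrophils against their precursors, with 42.1% of genes called, Irf5 was higher by 3.36 (SE 0.51, adjusted p = 6.2e-07), Irf2 by 1.54 (SE 0.18, adjusted p = 1.2e-11) and Irf1 by 1.52 (SE 0.21, adjusted p = 3.4e-09). Irf8 was higher by 1.03 (SE 0.32, adjusted p = 0.0058), a call that ended without Idh1-R132H 1 (adjusted p = 0.083) or Idh1-R132H 2 (adjusted p = 0.19), with doublet calls kept (adjusted p = 0.19) and after free RNA was subtracted (0.56, adjusted p = 0.27).

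**Figure D3:**
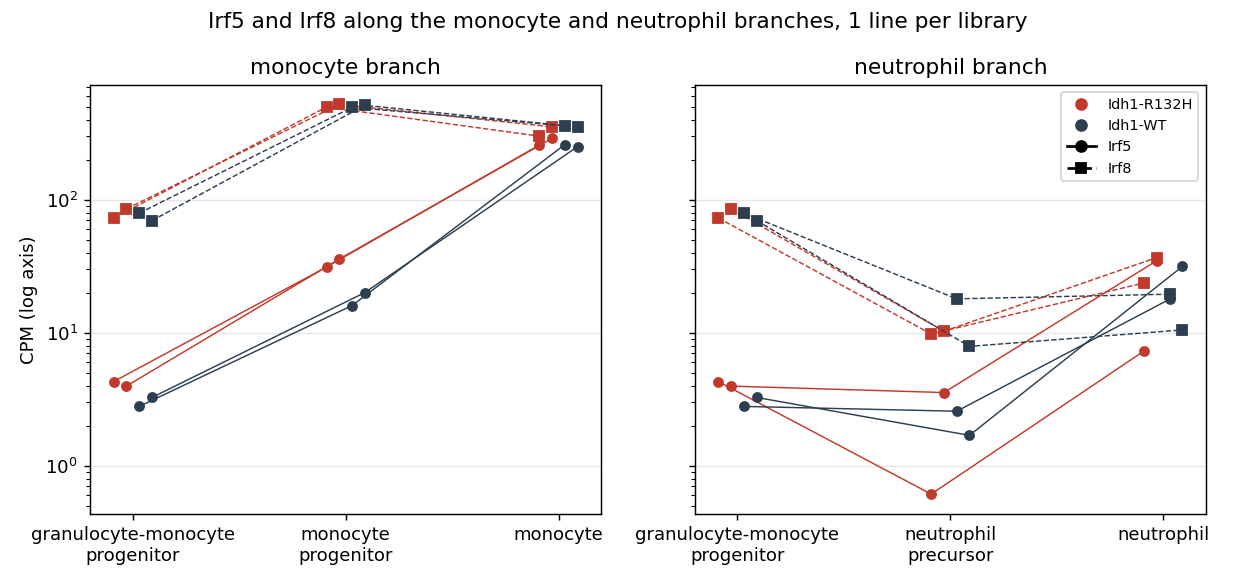
Irf5 (circles, solid lines) and Irf8 (squares, dashed lines) in CPM on a log axis along the monocyte branch (left) and the neutrophil branch (right), 1 line per library, Idh1-R132H in red and Idh1-WT in dark blue. Irf8 reaches 496 to 521 CPM in monocyte progenitors and is at most 36.8 CPM on the neutrophil side beyond the first group. In monocyte progenitors, the red Irf5 points (31.2 and 35.8 CPM) lie above the blue ones (16.0 and 20.1 CPM).

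In the B branch, mature cells had more Irf5 than B precursors by 4.53 (SE 0.49, adjusted p = 6.5e-10), on 141 against 7 UMIs, more Irf2 by 1.56 (SE 0.23, adjusted p = 1.6e-08) and more Irf8 by 1.25 (SE 0.20, adjusted p = 2.5e-07), while 30.2% of genes were called. Irf8 stood at 239 and 310 CPM in Idh1-R132H and 241 and 275 CPM in Idh1-WT mature B cells, against 119 and 123 CPM in Idh1-R132H and 147 and 108 CPM in Idh1-WT precursors, without overlap. Irf4 was lower in mature cells at -1.61 (SE 0.46, adjusted p = 0.0044). Irf1 was called higher (1.43, SE 0.43, adjusted p = 0.0061) on 37 against 16 UMIs, and not without Idh1-R132H 1 (adjusted p = 0.051) or Idh1-WT 2 (adjusted p = 0.075). Conventional dendritic cells had less Irf8 than plasmacytoid ones at -0.76 (SE 0.10, adjusted p = 1.8e-08), with 11.3% of genes called. Irf5 was higher in conventional cells by 0.95 (SE 0.29, adjusted p = 0.022), but not called without the library block (adjusted p = 0.064), with library totals alone (adjusted p = 0.059), or without Idh1-R132H 2 (adjusted p = 0.082) or Idh1-WT 2 (adjusted p = 0.081).

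Between genotypes, 1 of 69 tests of the members in 16 groups (the dendritic sum included) was called: Irf5 was higher in Idh1-R132H monocyte progenitors. Its level there was 31.2 and 35.8 CPM in Idh1-R132H 1 and 2, on 160 and 181 UMIs, and 16.0 and 20.1 CPM in Idh1-WT 1 and 2, on 95 and 73 UMIs. Both mutant libraries lay above both wild-type ones. The log2 difference was 0.94 (SE 0.15, 95% interval 0.65 to 1.23, edgeR adjusted p = 0.00038), or 1.92-fold, and 20 of 9644 genes (0.207%) were called in this group. It ranged from 0.78 to 1.06 with each library left out in turn, which leaves 1 library in a genotype. DESeq2, with a like difference of 0.92, gave an adjusted p of 0.19 and called 4 genes. The other members in the same cells had differences between -0.20 and 0.22, and Irf8 was at 0.04 (95% interval -0.06 to 0.14).

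The share of monocyte progenitors with an Irf5 UMI was 43.0% and 42.0% in Idh1-R132H 1 and 2 (111 of 258 and 113 of 269 cells), and 26.6% and 30.3% in Idh1-WT 1 and 2 (75 of 282 and 53 of 175 cells). With every cell thinned to 10000 UMIs and the shallower cells, 12 and 11 in Idh1-R132H and 17 and 9 in Idh1-WT, left out, the shares were 26.4% and 26.7% in Idh1-R132H and 14.3% and 19.3% in Idh1-WT. Their exact 95% binomial intervals, which cover counting error only, ran from 21.0% to 32.4% and 21.4% to 32.6% in Idh1-R132H, and from 10.4% to 19.2% and 13.6% to 26.1% in Idh1-WT, so those of Idh1-WT 2 overlap the mutant ones. Erythroid cells, a lineage not known for Irf5, gave 1.33% and 2.11% in Idh1-R132H and 2.96% and 0 in Idh1-WT at the same thinned depth, on median depths of 10195 to 13494 UMIs against 18740 to 21054 UMIs in monocyte progenitors. The 0 stands for 0 of 75 cells, with an upper exact limit of 4.80%. The 5 richest cells held 11.2% and 14.4% of the Irf5 UMIs of Idh1-R132H 1 and 2 and 13.7% and 21.9% of those of Idh1-WT 1 and 2, so the UMIs were spread over many cells in each library. Irf8 was found at that depth in 97.2% and 98.4% of Idh1-R132H and 98.5% and 98.2% of Idh1-WT monocyte progenitors.

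**Figure D4:**
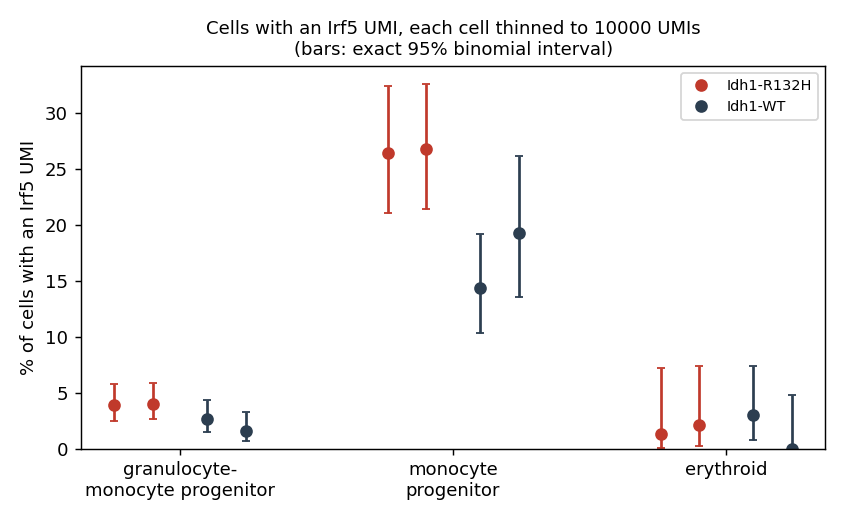
Percent of cells with an Irf5 UMI, with every cell thinned to 10000 UMIs, in granulocyte-monocyte progenitors, monocyte progenitors and erythroid cells. Each point is 1 library with its exact 95% binomial interval, Idh1-R132H in red left of Idh1-WT in dark blue; in monocyte progenitors the shares are 26.4% and 26.7% in Idh1-R132H and 14.3% and 19.3% in Idh1-WT.

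The monocyte markers summed to 2678 and 2806 CPM in Idh1-R132H and 2583 and 2807 CPM in Idh1-WT monocyte progenitors, with 13 of 13 markers detected in each, and the progenitor markers to 19519 and 17988 CPM in Idh1-R132H and 19159 and 18339 CPM in Idh1-WT. Cells entered the group by their scores on these same marker sets, so the sums are no independent measure of how alike the cells of the genotypes are. Tnpo3, which overlaps Irf5, had 28.7 and 24.9 CPM in Idh1-R132H and 25.5 and 25.3 CPM in Idh1-WT monocyte progenitors, a difference of 0.10 (adjusted p = 0.92).

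Irf5 was not called between genotypes in the neighbouring groups. Granulocyte-monocyte progenitors had 4.30 and 3.97 CPM in Idh1-R132H and 2.79 and 3.26 CPM in Idh1-WT, a difference of 0.47 (SE 0.23, 95% interval 0.02 to 0.93, adjusted p = 0.43). Lymphoid-primed progenitors had 11.3 and 16.7 CPM in Idh1-R132H and 8.01 and 9.63 CPM in Idh1-WT, a difference of 0.70 (SE 0.42, adjusted p = 0.89). Clustering gave 0.0% of the 410 cells of that gate the same name. Monocytes, with 258 and 290 CPM in Idh1-R132H and 260 and 251 CPM in Idh1-WT, overlapped between genotypes and differed by 0.11 (95% interval -0.09 to 0.30, adjusted p = 0.94). In neutrophils the interval was wide, -1.40 to 0.83 around -0.29.

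Whether the genotype difference of a member itself differed between groups was tested in 3 pairs of groups. For Irf5 it was smaller in monocytes than in monocyte progenitors, by -0.81 on the log2 scale (SE 0.17, edgeR adjusted p = 0.0049), where 5 of 9360 genes (0.0534%) were called. That call was lost without Idh1-R132H 1 (-0.84, adjusted p = 0.15), without Idh1-R132H 2 (-0.80, adjusted p = 0.27), without Idh1-WT 1 (-0.61, adjusted p = 0.67) and with clusters in place of gates (-0.68, adjusted p = 0.076). Monocyte progenitors against granulocyte-monocyte progenitors gave 0.46 (SE 0.27, adjusted p = 0.98) for Irf5, with 0.0563% of genes called, and monocytes against neutrophils gave 0.45 (SE 0.46, adjusted p = 0.87), with 0.153% called. None of the other members was called in these 3 tests.

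The remaining genotype tests did not reach an adjusted p below 0.05. Over all 69, 6 had an unadjusted p under 0.05 in edgeR's test, the called Irf5 test among them. How many of all genes had such a p is not given, so this count is not read as a result about the members. The share of all genes called was 0.109% in stem and multipotent, 0.0661% in lymphoid-primed and 0.718% in granulocyte-monocyte progenitors, 0.701% in neutrophil precursors, 0.253% in neutrophils and 0.459% in monocytes. It was 0.0 in plasmacytoid, 0.0355% in conventional and 0.344% in all dendritic cells, 0.132% in B precursors, 0.757% in mature B cells, 0.0474% in T or NK cells, 0.0631% in basophils or mast cells, 0.0471% in erythroid cells and 0.0476% in megakaryocytes, so that few genes were called in any group. Of the members not called, Irf8 in lymphoid-primed progenitors had 87.2 and 108 CPM in Idh1-R132H 1 and 2 and 145 and 107 CPM in Idh1-WT 1 and 2, overlapping between genotypes (-0.38, SE 0.15, adjusted p = 0.84). In conventional dendritic cells, Irf8 had 981 and 947 CPM in Idh1-R132H and 1260 and 1135 CPM in Idh1-WT, without overlap (-0.31, SE 0.15, adjusted p = 0.81). Irf1 in stem and multipotent progenitors had 39.7 and 41.3 CPM in Idh1-R132H and 33.5 and 33.7 CPM in Idh1-WT (0.26, SE 0.12, adjusted p = 0.96), and Irf2 in plasmacytoid dendritic cells 67.8 and 36.6 CPM in Idh1-R132H and 110 and 89.6 CPM in Idh1-WT (-0.96, SE 0.47, adjusted p = 0.99). Both of these also stood apart between genotypes, on counts or sizes that did not pass the test over all genes. With 2 libraries per genotype, a gene can stand apart without a genotype difference. The share of all genes that did so is not given, so no such separation is read as a result about the members. Irf8 in neutrophils, 23.7 and 36.8 CPM in Idh1-R132H and 19.5 and 10.5 CPM in Idh1-WT, differed by 0.87 (95% interval -0.02 to 1.76, adjusted p = 0.51). Irf4 could be tested in B precursors only, with 28.7 and 55.2 CPM in Idh1-R132H and 42.0 and 57.1 CPM in Idh1-WT (-0.25, SE 0.45, adjusted p = 0.92). Wherever Irf3 was tested, its difference lay between -0.56 and 0.28.

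**Figure D5:**
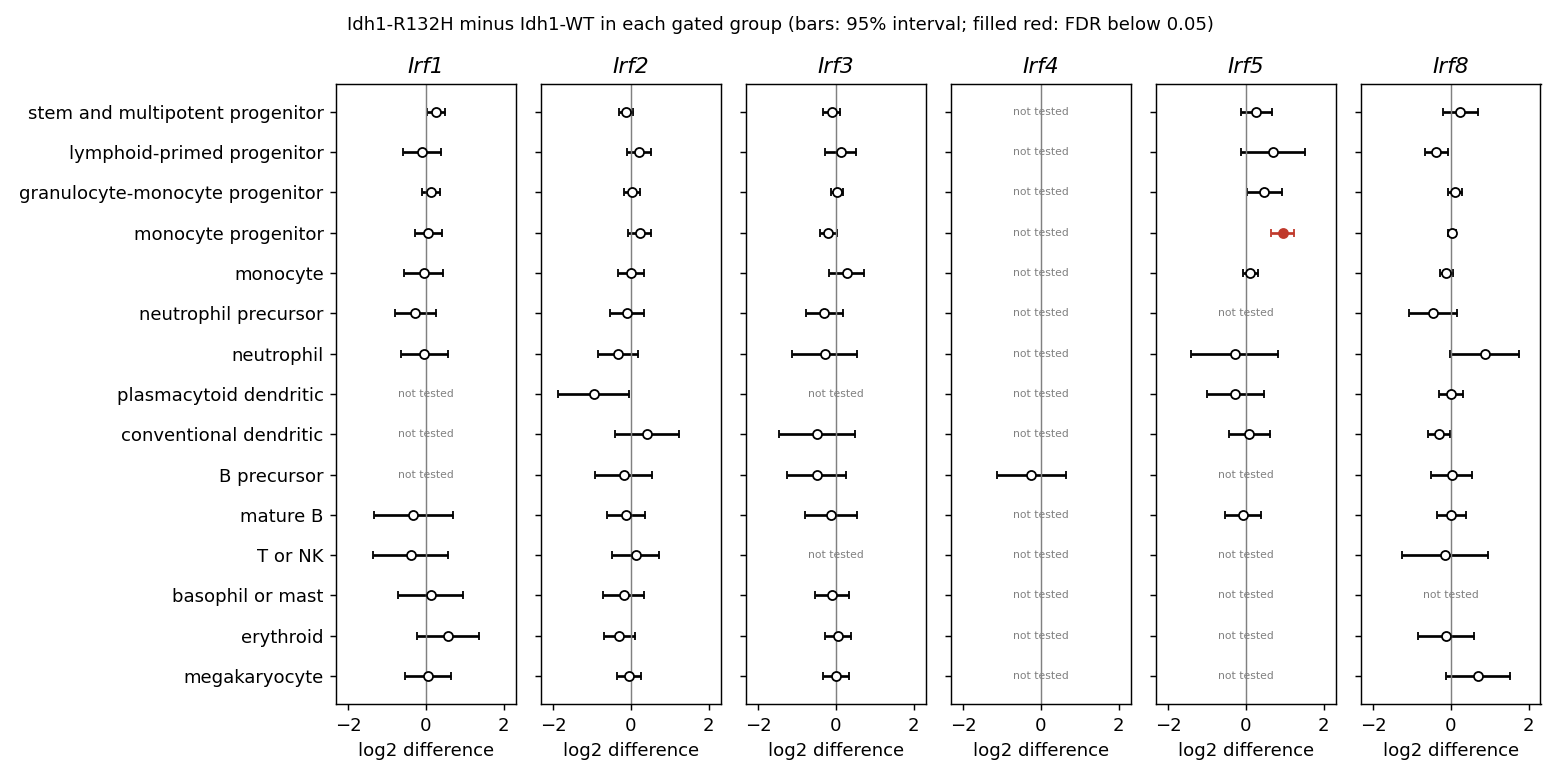
Log2 difference of each Irf gene, Idh1-R132H minus Idh1-WT, in the 15 gated groups (bars are 95% intervals; a group with too few counts is marked as not tested). The filled red point, Irf5 in monocyte progenitors at 0.94, is the one with an adjusted p below 0.05 in edgeR's test.

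The genes around the Irf family were followed as 6 lists. Of 9 interferon receptors and signal transducers, 16 sensors and kinases and 11 DNA-binding partners and co-repressors, none was called between genotypes in any group. The list of 16 genes known to depend on Irf1 is called antigen processing below, though it also holds guanylate-binding genes and some others. Of these 16, B2m, the light chain of class I molecules, was higher in Idh1-R132H monocytes (0.30, SE 0.04, adjusted p = 7.5e-09, with 0.459% of genes called). Its level was 4949 and 5313 CPM in Idh1-R132H and 4326 and 4033 CPM in Idh1-WT. The other 13 members tested there were not called, and the list's median was 0.06, with that of all genes near 0. Of 9 cytokine and response genes driven by Irf3 and Irf5, Ccl5 was lower in Idh1-R132H stem and multipotent progenitors, with 6.34 and 4.96 CPM in Idh1-R132H and 17.8 and 12.2 CPM in Idh1-WT (-1.44, SE 0.23, adjusted p = 0.0062), where 0.109% of genes were called. Ccl5 is also a marker of the T or NK gate, where its level was 6231 to 8203 CPM, and the call was lost with clusters in place of gates (-0.79, adjusted p = 0.66).

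Among 8 mononuclear phagocyte genes that depend on Irf8, Cybb, the large subunit of the phagocyte oxidase, was higher in Idh1-R132H granulocyte-monocyte progenitors, at 18.9 and 19.7 CPM in Idh1-R132H and 13.5 and 11.0 CPM in Idh1-WT (0.66, SE 0.12, adjusted p = 0.0045; 0.718% of genes called), a call lost without Idh1-R132H 2 (adjusted p = 0.11) and with clusters (adjusted p = 0.17). Cd74, the class II invariant chain and a gate marker of mature B and conventional dendritic cells, was lower in Idh1-R132H mature B cells, at 20491 and 22359 CPM in Idh1-R132H and 28521 and 28859 CPM in Idh1-WT (-0.48, SE 0.06, adjusted p = 0.00050; 0.757% of genes called), but not with clusters (-0.36, adjusted p = 0.84). In the sum of both dendritic kinds (0.344% of genes called), Cst3 (-0.43, adjusted p = 0.0037) and Cd74 (-0.34, adjusted p = 0.043) were lower in Idh1-R132H. Neither was called in conventional or plasmacytoid cells alone, and both calls were lost without Idh1-WT 1, without Idh1-WT 2 and with DESeq2. Of these 6 calls, DESeq2 also made those of B2m in monocytes and Cd74 in mature B cells.

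In monocytes against their progenitors, where 67.6% of all genes were called, 8 of 8 tested receptors and signal transducers were higher, with a median of 1.12 against 0.04 for all genes, among them the interferon gamma receptor chains Ifngr1 by 1.19 and Ifngr2 by 1.33. Of 8 tested sensors and kinases, 5 were higher and none lower, among them Tlr2 (2.64, SE 0.19) and the Toll-like receptor adaptor Myd88 (1.34, SE 0.12). Among 11 partners 6 were higher and 2 lower, with Spi1 higher by 0.85 (SE 0.08, adjusted p = 2.5e-16). Of 14 tested genes of the antigen processing list 9 were higher and 2 lower. All 8 of the Irf8-dependent list were higher, 4 of them (Klf4, Ctss, Batf3 and Cd74) markers of a monocyte or other gate. Isg15 and Ifit1, induced by interferon, were higher by 4.25 (SE 0.29) and 4.12 (SE 0.43), and Il12a was lower at -2.72 (SE 0.38); these 3 and 1 more made up the 4 tested genes of the cytokine list, 3 higher and 1 lower.

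The earlier step, monocyte progenitors against granulocyte-monocyte progenitors, called 37.3% of all genes. Of the lists, 3 receptors and transducers were higher and 2 lower of 8 tested, 4 of 8 sensors and kinases higher, 1 of 11 partners higher and 1 lower, 4 of 14 antigen processing genes higher and 2 lower, 4 of 8 Irf8-dependent genes higher and 1 lower, and 1 of 4 cytokine genes lower. Klf4, Ctss, Batf3 and Cd74 of the Irf8-dependent list are markers of gates other than these. Ifngr1 was lower at -1.13 (SE 0.05, adjusted p = 4.8e-32), with 133 and 140 CPM in Idh1-R132H and 148 and 133 CPM in Idh1-WT monocyte progenitors, against 281 and 290 CPM in Idh1-R132H and 310 and 292 CPM in Idh1-WT granulocyte-monocyte progenitors. Ifngr2 was higher by 0.95 (SE 0.08) and Gbp3, a guanylate-binding protein, by 0.71 (SE 0.08). The 2 chains of the interferon gamma receptor thus differed in opposite directions at this step and in the same direction at the next.

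In dendritic cells against monocytes, Psmb9 and Psmb8, subunits of the immunoproteasome, were higher by 0.97 (SE 0.12) and 0.81 (SE 0.11), and the peptide transporter subunit Tap2 by 1.43 (SE 0.20), while Spi1 was lower at -0.83 (SE 0.13) and Ifngr2 at -1.38 (SE 0.19). With 35.5% of all genes called, counts there were 0 higher and 2 lower of 6 receptors and transducers, 1 and 2 of 7 sensors, 2 and 1 of 10 partners, 4 and 2 of 13 antigen processing genes, 4 and 4 of 8 Irf8-dependent genes and 1 and 1 of 3 cytokine genes. Of the Irf8-dependent genes, Klf4 and Ctss are markers of the monocyte gate, and Batf3 and Cd74 of the conventional dendritic gate. The choice of cells therefore fixed part of that count in advance. The partners of Irf4 and Irf8 had group patterns of their own. Batf3, a gate marker of conventional dendritic cells, had 199 and 150 CPM in Idh1-R132H and 218 and 242 CPM in Idh1-WT conventional cells and 13.5 to 23.6 CPM in monocytes, and no UMI in plasmacytoid cells. Spib, no gate marker, had 203 and 119 CPM in Idh1-R132H and 110 and 125 CPM in Idh1-WT plasmacytoid cells, a mean of 250 CPM in mature B cells, and 1 UMI in all conventional cells. Spi1 was higher in conventional than in plasmacytoid cells by 1.69 (SE 0.18, adjusted p = 1.2e-12).

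In mature B cells against B precursors, where 30.2% of all genes were called, 3 of 8 receptors and transducers, 3 of 8 sensors, 8 of 14 antigen processing genes and 5 of 8 Irf8-dependent genes were higher with none lower, 5 of 11 partners were higher and 2 lower, and 0 of 4 cytokine genes passed. Cd74, of the Irf8-dependent list, is a marker of the mature B gate. Jak1, a kinase of interferon receptors, was higher by 2.01 (SE 0.27, adjusted p = 9.9e-10), Spib by 1.29 (SE 0.21) and Ikzf3, which encodes Aiolos, by 1.97 (SE 0.40), and Tcf3, which encodes E2A, was lower at -1.29 (SE 0.16, adjusted p = 9.7e-11). In neutrophils against their precursors, where 42.1% of all genes were called, the antigen processing list had 12 of 14 members higher and none lower, with a median of 0.77 against 0.01, the receptors 6 of 8, the sensors 3 of 8, the partners 1 higher and 1 lower of 11, the Irf8-dependent genes 2 higher and 1 lower of 8, and the cytokine genes 2 of 4. Ifnb1, Il6 and Il12b, which encode cytokines made on activation, had between 0 and 3 UMIs over the 6 groups of the monocyte, dendritic and mature B branches and their progenitors.

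Over the 15 groups, the log2(CPM + 1) profiles of Irf5 and Irf8 correlated at r = 0.79 and those of Irf1 and Irf2 at r = 0.69, whereas Irf1 and Irf3 gave -0.01. These are descriptions over group means that share libraries and depth. Of 9577 genes that are no gate markers and reach 10 CPM in a group, the most alike in profile were Pkib, Pld4 and Kmo for Irf8 (r from 0.88 to 0.89), Slc12a9, Stx7 and Haao for Irf5 (0.92 to 0.96), Zfp143, Snx2 and Tbpl1 for Irf4 (0.87 to 0.88), Lppos, Arhgap27 and Nfatc1 for Irf1 (0.90 to 0.93), Atf7ip, Lpp and Trim34a for Irf2 (all 0.92) and Gtpbp6, BC005624 and Ythdf1 for Irf3 (0.96 to 0.97). Pld4 peaked in plasmacytoid dendritic cells at 631 CPM and Stx7 in monocytes at 193 CPM, the same groups in which Irf8 and Irf5 were highest.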

How the data were processed

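The deposited files are raw UMI counts per gene and barcode from 10x 3′ v2 libraries, whole numbers in all 4 files and with empty droplets included; Cell Ranger 4.0.0, Seurat and the GRCm38/mm10 build are named in the submitters' processing notes. A barcode counted as a cell from 500 UMIs and 200 genes upwards, with mitochondrial UMIs at 10% or less; shared barcodes were removed as described above, and 179 Scrublet calls (1.12%) were left out. Cells were assigned with 19 marker sets: the mean z-scored marker level had to reach 0.5, exceed the next set by 0.1 and rest on 3 detected markers. That score rule was set after cells were seen, 3862 cells lay within 0.1 of a limit and 934 were left out by the margin alone. After filtering, library pairs shared 13 to 28 cell barcodes.

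UMIs were summed per library and group and tested with edgeR 4.0.16 in R 4.3.3 (glmQLFit, robust, TMM factors, filterByExpr, Benjamini-Hochberg over all genes tested, threshold 0.05); comparisons between groups and of genotype differences had the library as a block. Standard errors were derived from the F statistic, and 95% intervals from them. These fits draw the spread of a gene towards that of all genes tested. Between genotypes, the weight of the shared spread (median prior degrees of freedom) was 34.5 in monocyte progenitors. It was infinite in monocytes, neutrophil precursors and the dendritic sum. DESeq2 1.42.0, other scalings, filters, clusters (scanpy 1.11.5) and libraries left out in turn were alternatives. Clusters gave the same name to 0.0% of lymphoid-primed, 58.9% of basophil or mast, 60.5% of megakaryocyte and 61.9% of conventional dendritic cells. In the other groups used, the share was 78.8% to 99.0%. On simulated counts, 38.8%, 95.5% and 100% of genes changed by 0.5, 1 and 2 on the log2 scale were recovered between genotypes in monocyte progenitors (9618 genes), and 7.55%, 45.8% and 94.1% in neutrophils (3644 genes). These counts had the same fixed spread for every gene, not that of the data, and only genes above a set level were changed. The rates are therefore not the power of the tests on these libraries.

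Named were the 6 Irf genes in every group, up to 3 called genes per list and comparison by smallest p (for lists, not in comparisons with neutrophil groups), and for each Irf gene the 3 genes most alike in profile; 1 list gene that this rule names is not reported here. The genes and lists were chosen with earlier results of these data known. Intervals of shares and count limits cover counting error only. Too few eosinophils, macrophages, plasma cells and stromal cells were found for a comparison.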

Additional observations from a re-analysis of the deposited data

Results flagged for a closer look

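The difference between Idh1-R132H and Idh1-WT in Irf5 was itself unequal in a pair of cell groups: it was 0.11 in monocytes and 0.94 in monocyte progenitors, and the term for the difference was -0.81 on the log2 scale (SE 0.17, edgeR adjusted p = 0.0049). Irf5 stood at 258 and 290 CPM in Idh1-R132H monocytes and 260 and 251 CPM in Idh1-WT monocytes, and at 31.2 and 35.8 CPM in Idh1-R132H and 16.0 and 20.1 CPM in Idh1-WT monocyte progenitors. The call rested on Idh1-R132H 1, Idh1-R132H 2 and Idh1-WT 1, without any one of which the adjusted p was 0.15 to 0.67.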

How the results depend on the processing

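Of 244 counts of calls recomputed under alternatives, 231 stayed within 1.5 times the reported count and 13 moved; of 2654 differences, 2554 kept their direction and side of the threshold, 97 lost the call and 3 reversed. The reversals were Irf8 between genotypes in granulocyte-monocyte progenitors, 0.10 and, with a library left out, between -0.030 (without Idh1-R132H 2) and 0.22, and, with library totals alone, Irf2 in monocytes (0.31) and in dendritic cells (0.17) against neutrophils. The 1 Irf gene called between genotypes became 0 with DESeq2, which called 4 genes in monocyte progenitors, against 20 in edgeR, 48 with no filter on low counts, 13 with library totals alone, 12 with a gate margin of 0.2 and 36 to 201 with a library left out. In monocyte progenitors against granulocyte-monocyte progenitors, 4 Irf genes were called with library totals alone, against 2. In conventional against plasmacytoid dendritic cells it was 1 without the library block, and between 1 and 2 with a library left out. The count of Irf genes whose genotype difference differed between groups was 0 with clusters and between 0 and 1 with a library left out. Calls of list genes between genotypes, 6 in all, were 2 with DESeq2, 3 with clusters and between 7 and 14 with a library left out.

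Same-numbered libraries of the 2 genotypes did not deviate together (r = -0.0084 over 5304 genes). With the replicate number as a block, Irf5 in monocyte progenitors stood at 0.92 (adjusted p = 0.0064, 18 genes called). With library totals alone, 3744 of 4564 calls were higher in monocytes against neutrophils, against 1580 of 3386. Likewise they were 3698 of 4608 against 1857 of 3673 for dendritic cells and 3309 of 4237 against 1548 of 3227 for mature B cells, both against neutrophils. For neutrophil precursors against granulocyte-monocyte progenitors the split was 1260 of 5879, against 2839 of 5329. For monocyte progenitors it was 1709 of 2728 against 1331 of 2617, for dendritic against mature B cells 1050 of 1609 against 839 of 1572, and for conventional against plasmacytoid cells 270 of 800 against 424 of 790. Depth limited neutrophils and mature B cells most, whose median cell held 1565 to 1732.5 UMIs in the 4 libraries, and Irf4, with 98 UMIs over all cells. The gate margin, the removal of shared barcodes and the thinning were chosen after seeing the data.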
